A study of Mus musculus with 9 samples.

Results

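The 9 genes described here, Gapdh, Pkm, Ldha, Aldoa, Tpi1, Pgk1, Eno1, Pgam1 and Gpi1, encode enzymes of glycolysis and of lactate formation. They were chosen by gene symbol from the 27998 genes of the files, of which 13043 had a unique molecular identifier (UMI) in the cells analysed. CD45+ CD11b+ immune cells were sorted from the retinas of adult female mice without visual arrestin (Arr1-/-), whose photoreceptors degenerate in light. The mice were kept in darkness (day 0) or in constant room light for 7 or 20 days, and the 3′ ends of the transcripts were sequenced with droplet (10x 3′ version 2) libraries, 3 per day. All 3 groups carry the Arr1 deletion, no wild-type library was analysed here, and the methods describe pooled retinas without saying which library held which animals, so p-values measure only the spread between libraries, which may be technical. Sag, the gene of visual arrestin, had 11 UMIs over all barcodes of the 9 libraries, and at most 2 in 1 library.

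Glycolysis splits glucose into pyruvate in the cytosol and yields ATP and NADH without oxygen. Hexokinases trap glucose as glucose 6-phosphate, Gpi1 converts it to fructose 6-phosphate, aldolase (Aldoa) and triose phosphate isomerase (Tpi1) yield triose phosphates, Gapdh makes the NADH, phosphoglycerate kinase (Pgk1) and pyruvate kinase (Pkm) make ATP, Pgam1 and enolase (Eno1) act between them, and lactate dehydrogenase A (Ldha) returns NADH to NAD+. Macrophages and microglia are known to raise glycolysis on inflammatory activation, and photoreceptors are known for high aerobic glycolysis and lactate output. Many of these genes are known targets of hypoxia-inducible factor 1, which binds DNA that holds the core letters ACGTG or GCGTG.

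In the mm10 genome (GRCm38, GENCODE M21), all 9 are protein-coding genes, for example Gapdh on chromosome 6 (125161715 to 125166467, minus strand), Pkm on chromosome 9 (59656368 to 59679375, plus strand) and Ldha on chromosome 7 (46841475 to 46855627, plus strand). The letters ACGTG or GCGTG, on either strand and with overlaps allowed, stood in a RefSeq promoter window (GRCm38.p6, 250 bases before to 50 after a start) of 7 of the 9 genes, and in a window of 46.7% of all 27025 genes. Tpi1 and Gpi1 had no match in their windows. The windows of Ldha, with the most matches of the set (7, a number reached by 0.301% of all windows), and of Hk2, the hexokinase gene whose level differed between days below, are shown with the matched letters in capitals. The Ldha window is chr7:46845554-46845853 on the plus strand and the Hk2 window chr6:82774405-82774704 on the minus strand, and both are written 5′ to 3′. A match is a description of the letters, not a sign of binding.
Ldha: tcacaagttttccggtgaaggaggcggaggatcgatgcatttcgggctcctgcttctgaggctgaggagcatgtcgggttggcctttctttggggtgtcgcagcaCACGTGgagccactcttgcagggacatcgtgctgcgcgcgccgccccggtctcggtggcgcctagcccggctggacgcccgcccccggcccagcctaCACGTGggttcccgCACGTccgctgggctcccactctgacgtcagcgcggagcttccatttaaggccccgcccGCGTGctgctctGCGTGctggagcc
Hk2: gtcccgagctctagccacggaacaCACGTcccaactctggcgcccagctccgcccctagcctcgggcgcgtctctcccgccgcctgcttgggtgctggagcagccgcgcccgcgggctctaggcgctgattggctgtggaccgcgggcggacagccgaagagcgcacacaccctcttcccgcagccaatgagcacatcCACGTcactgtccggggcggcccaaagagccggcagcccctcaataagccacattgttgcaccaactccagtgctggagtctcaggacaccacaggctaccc

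The libraries shared barcodes. Of 1365 different barcodes, 612 were listed in more than 1 library, and each pair of libraries had 270 to 542 in common. Each barcode was therefore kept only in the library where its UMI total was highest. Quality control (200 or more genes detected, less than 10% of UMIs mitochondrial) passed 851 barcodes, and 736 were retained as myeloid cells (254 from day 0, 283 from day 7 and 199 from day 20), because they had at least 2 UMIs of 13 myeloid markers and more of these than of any other cell type list. Of these 736 cells, 489 had a barcode listed in more than 1 library, so their day rests on the rule of the highest total. All 13 myeloid markers were detected. The retained cells of a library held 20443 to 265207 UMIs, and day 7 replicate 3 (17 cells) and day 20 replicate 3 (32 cells) were the smallest. Rod RNA was present in retained cells: the 10 rod genes summed to 1072 to 6548 CPM (counts scaled to a total of 1000000 UMIs) in the day 0 libraries, 378 to 1076 at day 7 and 183 to 1038 at day 20. The immediate-early genes summed to 35489 to 45378 CPM at day 0, 3081 to 6750 at day 7 and 8081 to 21841 at day 20, and MHC class II genes to 620 to 2110, 10178 to 40405 and 5932 to 14717 CPM, respectively.

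The 9 enzymes together held 3687 UMIs in the retained cells, or 3319 CPM. In the mean of 3 libraries (± SD), their sum was 3487 ± 856 CPM at day 0, 3276 ± 342 after 7 days and 4159 ± 1476 after 20 days. The day 0 libraries had 3695, 2546 and 4220 CPM, the day 7 libraries 3107, 3052 and 3669, and the day 20 libraries 3556, 3079 and 5840, so the days overlapped. Day 20 replicate 3 had the highest sum of all 9 libraries. It also had the highest neuron marker sum of day 20 (730 CPM, against 126 to 132 in the other day 20 libraries) and the highest Müller glia and astrocyte marker sum of that day (2492 CPM). Day 7 replicate 3 had 2984 CPM of the Müller glia and astrocyte markers and 342 CPM of the neuron markers, with an enzyme sum of 3669 CPM. The part of these cells in the value of day 20 replicate 3 was not tested.

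**Figure D1:**
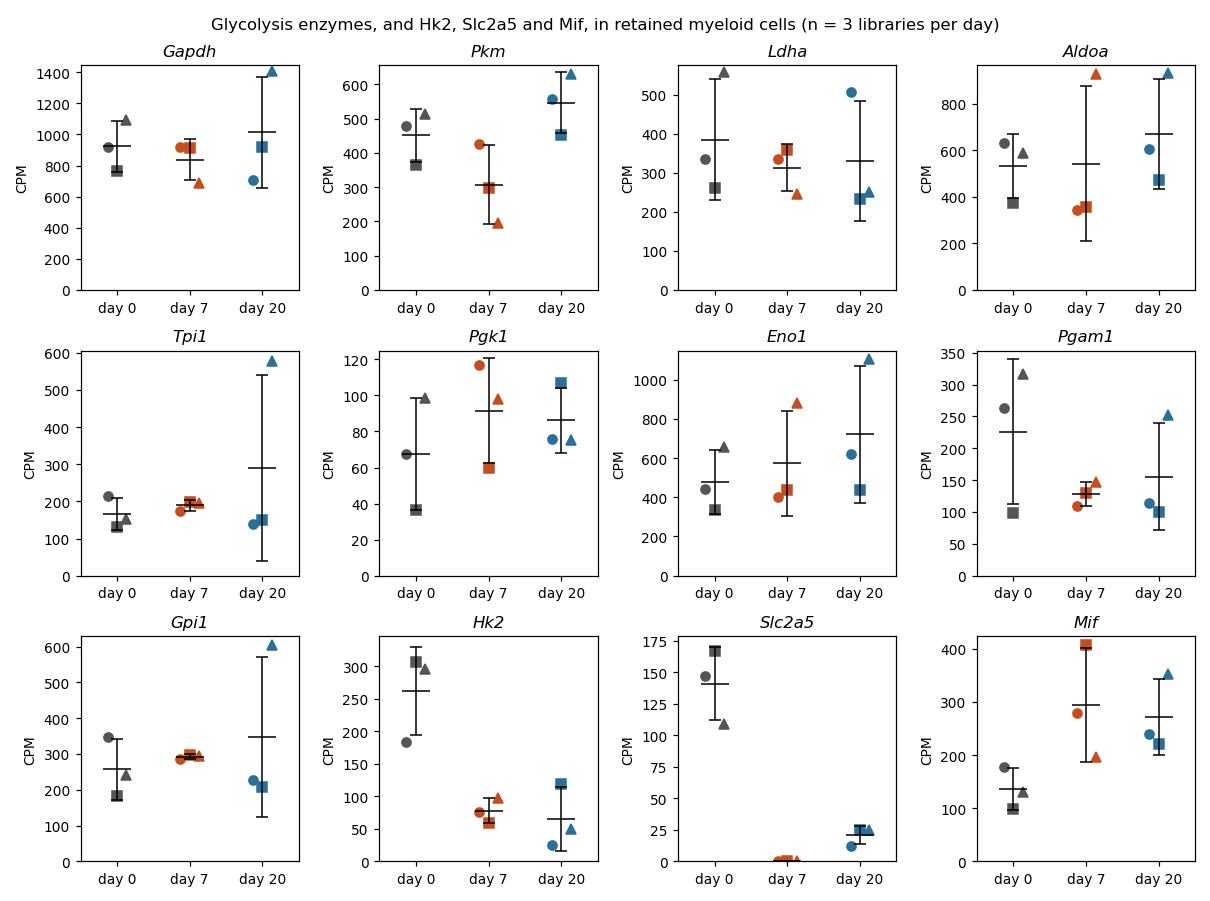
CPM (y axis) of the 9 glycolysis enzymes and of Hk2, Slc2a5 and Mif in the retained cells of each library, by day (x axis). Circles, squares and triangles are replicates 1, 2 and 3, and bars are the mean ± SD of 3 libraries. The days overlap for the enzymes in most panels, while all 3 day 0 libraries of Hk2 and Slc2a5 lie above all later libraries.

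Between days, 8 of the 9 enzymes had enough counts for the test (edgeR quasi-likelihood test on UMIs summed per library), and Pgk1 did not. At day 7 against day 0, 0 of the 8 passed an adjusted p of 0.05, where 27.0% of the 1357 genes tested did (367 genes). At day 20 against day 0, 0 of 8 passed, where 3.32% of genes did, and at day 20 against day 7, 0 of 8 passed, where 4.57% did. In all 3 comparisons, 0 of the 8 had even an unadjusted p under 0.05, and DESeq2 called 0 as well. The median log2 fold change of the 8 was -0.02 at day 7 (all genes, -0.08) and 0.26 at day 20 (all genes, -0.02). Without day 20 replicate 3 the median at day 20 was -0.06.

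These zeros do not show equal levels, since the intervals were wide. The 95% intervals of the enzymes reached from -1.77 to 1.31 on the log2 scale at day 7 and from -1.69 to 1.62 at day 20. Counts were simulated for day 7 against day 0 from the mean levels and depths of these libraries, with a single preset dispersion for all genes. Among genes drawn at random, the test recovered 30.8% of those changed 2-fold and 83.3% of those changed 4-fold. The spread was not taken from these libraries, so the rates are not those of the enzymes.

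Gapdh, which makes NADH, had 1004 UMIs in the retained cells. Its level was 918, 765 and 1093 CPM in the day 0 libraries, 916, 914 and 685 at day 7 and 709, 919 and 1410 at day 20. The groups overlapped, and the log2 fold change was 0.02 at day 7 (95% interval, -0.61 to 0.64). At day 20 it was 0.10 (-0.52 to 0.73). Of the 60-base stretches in the last 500 bases of its transcript, 88.0% also occur in annotated transcripts of 105 other genes, so reads could have been split or set aside and its value is uncertain.

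Aldoa, the aldolase that cleaves the 6-carbon sugar, had 630, 375 and 590 CPM at day 0, 343, 358 and 929 at day 7 and 607, 472 and 931 at day 20. The highest values were those of day 7 replicate 3 and day 20 replicate 3, the libraries with the fewest cells. Tpi1, which interconverts the triose phosphates, had 214, 130 and 153 CPM at day 0, 173, 199 and 196 at day 7 and 139, 151 and 579 at day 20. Its log2 fold change of 0.60 at day 20 (-0.43 to 1.62, edgeR adjusted p = 0.566) thus came with 1 high library and 2 within the range of day 0. Gpi1, the isomerase that follows hexokinase, had 349, 182 and 241 CPM at day 0, 287, 298 and 294 at day 7 and 228, 208 and 604 at day 20, again highest in day 20 replicate 3.

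Pgam1, the phosphoglycerate mutase, had the lowest log2 fold changes of the set, -0.74 at day 7 (-1.77 to 0.29, edgeR adjusted p = 0.274) and -0.67 at day 20 (-1.69 to 0.36, adjusted p = 0.518). Its levels were 263, 98.9 and 317 CPM at day 0, 109, 129 and 147 at day 7 and 114, 101 and 252 at day 20. Among the day 0 libraries replicate 2 had the least rod RNA (1072 CPM), and it had the lowest Pgam1 level of all 9 libraries. The later libraries had 378 to 1076 rod CPM at day 7 and 183 to 1038 at day 20, and all had more Pgam1. The part of rod RNA in the Pgam1 levels was not tested. In cells with at most 1 rod UMI, Pgam1 had 1 UMI at day 0, 30 at day 7 and 24 at day 20. The pooled day 7 level was 6.58 times day 0 (1.09 to 269, counting error only), the opposite direction, but resting on the 1 UMI of day 0. This cut on a raw count also leaves out deeper cells. At day 0 it kept 80 of 254 cells, with 64125 of 447023 UMIs, and at day 7 251 of 283 cells, with 292282 of 386256 UMIs. Eno1, the enolase, had 440, 333 and 656 CPM at day 0, 400, 437 and 880 at day 7 and 620, 434 and 1108 at day 20, which overlapped. In the last 500 bases of its transcript, 70.1% of 60-base stretches are shared with Eno1b, a near-identical copy, so the split between both is uncertain. Pgk1 had 92 UMIs in all and was too low to test with the filter. Its pooled level at day 7 was 1.67 times that of day 0 (0.998 to 2.84, counting error only), with 67.3, 36.4 and 98.4 CPM at day 0 and 117, 59.6 and 97.8 at day 7.

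Pkm, which makes pyruvate, was the 1 of the 8 tested enzymes whose libraries did not overlap between day 20 and day 7, where 19.7% of the 1357 genes tested did not. At day 7 and at day 20 against day 0, 0 of the 8 were separated in this way, where 38.5% and 25.6% of genes were. It had 477, 364 and 514 CPM at day 0, 426, 298 and 196 at day 7 and 557, 453 and 629 at day 20. The lowest day 20 library lay above the highest day 7 library, but the log2 difference of 0.54 (-0.12 to 1.21) did not pass (edgeR adjusted p = 0.399). Ldha had 336, 260 and 558 CPM at day 0, 336, 358 and 245 at day 7 and 506, 233 and 252 at day 20, and its log2 fold changes were -0.08 at day 7 and -0.19 at day 20.

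Lactate dehydrogenase is built from A subunits (Ldha) and B subunits (Ldhb), which are known to favour lactate formation and lactate use, respectively. Ldhb had 447, 443 and 678 CPM at day 0, 264, 398 and 97.8 at day 7 and 506, 523 and 378 at day 20. All 3 day 7 libraries lay below all day 0 libraries, with a log2 fold change of -0.73 that did not pass (edgeR adjusted p = 0.121). Ldha made up 41.7% ± 4.19 (SD, n = 3) of the UMIs of both genes at day 0, 58.3% ± 12.2 at day 7 and, by day 20, 40.3% ± 9.59. The day 7 libraries had 56.0%, 47.4% and 71.4%, all above the day 0 libraries (43.0%, 37.0% and 45.1%), and the 71.4% rested on 7 UMIs. The exact two-sided permutation test gave p = 0.1, the smallest that 3 against 3 libraries allow, for day 7 against day 0, and p = 0.9 for day 20 against day 0. Among the 3 comparisons of this share, day 20 against day 7 had an exact p of 0.2, so none passed.

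**Figure D2:**
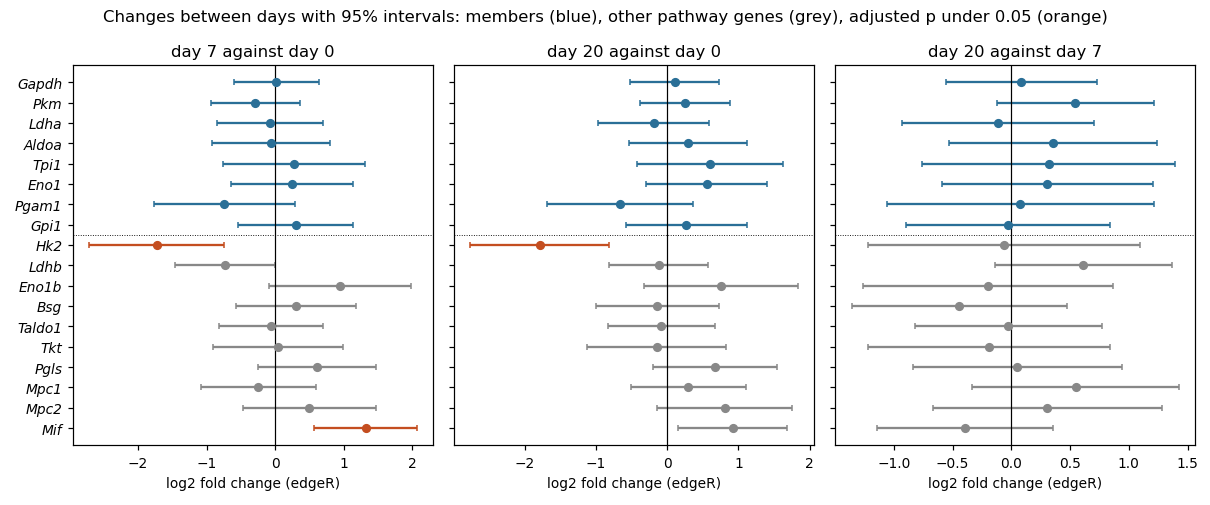
Log2 fold changes from edgeR (x axis, points) with 95% intervals (bars) for the 8 tested enzymes and 10 other tested genes of linked pathways, in 3 day comparisons whose x axes differ in range. The intervals of the 8 enzymes all include 0, while Hk2 lies below 0 at both day 7 and day 20 against day 0. Mif lies above 0 at both times against day 0, but its edgeR adjusted p was under 0.05 only at day 7.

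Other genes of glucose metabolism were taken from 5 lists. Of 25 other glycolysis and lactate enzymes, 3 were tested between days, and 1 of these, Hk2, was lower at day 7 and at day 20 than at day 0. Of 11 glucose and lactate transporters, 2 were tested and 1, Slc2a5, was lower at both times. Of 14 hypoxia response genes, only Mif was tested, and it was higher at day 7. Of 7 pentose phosphate genes, 3 were tested (Pgls, Tkt and Taldo1), and of 12 pyruvate dehydrogenase and pyruvate carrier genes, 2 (Mpc1 and Mpc2), and 0 of these 5 passed in any day comparison. These lists were chosen with earlier results of the data known, and the day comparisons share the day 0 or day 7 libraries. Hk2 and Slc2a5 passed the filter on low counts through the day 0 libraries, where they were highest. The direction of their differences from day 0 was thus close to fixed in advance.

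Hk2 encodes hexokinase 2, which phosphorylates glucose and is known as an inducible form. It had 184, 307 and 295 CPM at day 0, 75.4, 59.6 and 97.8 at day 7 and 25.3, 120 and 50.3 at day 20. All 3 day 0 libraries lay above all 6 later ones. The log2 fold change was -1.73 ± 0.46 (SE) at day 7 (edgeR adjusted p = 0.0137) and -1.79 ± 0.46 at day 20 (adjusted p = 0.0456). On the counts as deposited, with shared barcodes in every library, the changes were -0.72 and -0.95 and neither passed (edgeR adjusted p = 0.0999 and 0.188). The day 7 call was lost without day 0 replicate 2, day 7 replicate 1 or day 7 replicate 2 (adjusted p = 0.0558 to 0.105), and the day 20 call without any library other than day 0 replicate 1 and day 20 replicate 2 (0.0583 to 0.191). Over all 17 alternatives that tested Hk2, the day 7 call held in 12 and the day 20 call in 6.

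Few of the Hk2 UMIs of day 0 lay in retained cells with little rod RNA. Of the 116 Hk2 UMIs at day 0, only 5 lay in the 80 day 0 cells with at most 1 rod UMI, which held 64125 of the 447023 UMIs of that day. In such cells the pooled Hk2 level was 78.0 CPM at day 0, against 68.4 at day 7 and 46.9 at day 20, and the ratio of day 7 to day 0 was 0.878 (0.320 to 2.99, counting error only). The day 0 libraries had 0, 72.8 and 524 CPM in these cells, from 0, 4 and 1 UMIs, and replicate 2 held 62 of the 80 cells. The part of rod RNA in the Hk2 difference was not tested. Day 0 replicate 2, with the least rod RNA of its day, had the highest Hk2 level of the 9 libraries.

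Slc2a5 encodes GLUT5, a fructose transporter known as a marker of microglia. It had 147, 167 and 109 CPM at day 0, 0 UMIs in all 3 libraries at day 7 and 12.7, 25.2 and 25.2 CPM at day 20. The days did not overlap. Day 7 was at least 19.0-fold lower than day 0, setting the 0 of 386256 UMIs to 3 counts over the day (edgeR adjusted p = 0.000357), and day 20 differed by -2.70 ± 0.63 on the log2 scale (adjusted p = 0.0343). In cells with at most 1 rod UMI, Slc2a5 had 11 UMIs at day 0, 0 at day 7 and 5 at day 20. On the deposited counts neither call held (adjusted p = 0.174 and 0.623), and the day 20 call was lost without any library other than day 7 replicates 2 and 3 (0.0539 to 0.317) and with the replicate number as a block (-2.78, 0.0501). Over all 17 alternatives that tested Slc2a5, the day 7 call held in 15 and the day 20 call in 5. The day 7 log2 fold change ran from -7.24 to -1.02 over these alternatives, so its size depends on the processing.

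Mif, a cytokine gene with hypoxia response elements, had 177, 98.9 and 131 CPM at day 0, 279, 408 and 196 at day 7 and 240, 220 and 352 at day 20. All 6 later libraries lay above the 3 day 0 libraries. The log2 fold change was 1.32 ± 0.35 at day 7 (edgeR adjusted p = 0.0132) and 0.92 ± 0.36 at day 20 (adjusted p = 0.205). Day 0 replicate 2 or day 7 replicate 2 left out ended the day 7 call (adjusted p = 0.0778 and 0.117), as did the deposited counts (0.0588). Over all 18 alternatives that tested Mif, the day 7 call held in 12.

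Of the tested genes that did not pass, Bsg, the chaperone of the lactate transporters, lay between -0.44 and 0.30 on the log2 scale over the 3 day comparisons, and the pyruvate carrier genes Mpc1 and Mpc2 between -0.25 and 0.80. Taldo1 and Tkt, of the pentose phosphate pathway, lay within -0.19 and 0.04, and Pgls within 0.05 and 0.66. Eno1b had 0.95 at day 7 (edgeR adjusted p = 0.16). Several genes at the control points of glycolysis were too low to test. Pfkfb3, which makes the activator of phosphofructokinase, had 50 UMIs at day 0, 7 at day 7 and 15 at day 20, so day 7 was 0.162 times day 0 (0.0620 to 0.359, counting error only). Without the filter on low counts its edgeR adjusted p was 0.0635 at day 7. In cells with at most 1 rod UMI it had 3, 6 and 4 UMIs at the 3 days, too few to compare. Pfkl, a phosphofructokinase subunit, had 36, 17 and 11 UMIs, and P4ha1, a hypoxia response gene of collagen synthesis, 32, 8 and 13. Pdha1, a subunit of pyruvate dehydrogenase, had 25, 10 and 6, and Pdk1, which inhibits that complex, 12, 10 and 9. Hif1a, the regulated subunit of hypoxia-inducible factor 1, had 25, 20 and 11, and Pgd, of the pentose phosphate pathway, 35, 19 and 30.

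Cell by cell, the 9 enzymes took a median of 0.298% of a cell's UMIs (quartiles 0.163% and 0.466%, 736 cells). The median cell held 3 of their UMIs from 2 of the 9 genes, and 103 cells (14.0%) had 0. The library medians were 0.354%, 0.248% and 0.425% at day 0, 0.257%, 0.264% and 0.306% at day 7 and 0.296%, 0.242% and 0.587% at day 20. The days overlapped in these medians. In day 20 replicate 3, all 32 cells had a UMI of an enzyme. In 1 cell of day 20 replicate 1, with 403 UMIs, 20 UMIs (4.96%) came from 4 of the enzymes, the highest share of any retained cell.

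**Figure D3:**
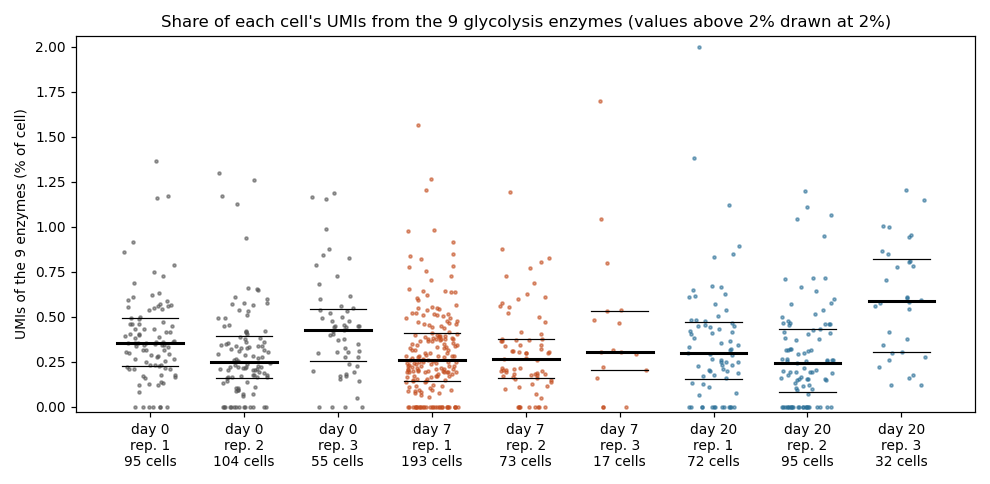
Percent of each retained cell's UMIs that came from the 9 enzymes (y axis), by library (x axis). Each point is a cell, thick lines are medians and thin lines quartiles, and the cell at 4.96% is drawn at 2%. Most cells lie under 0.5% in every library but day 20 replicate 3, whose median is 0.587%.

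To compare detection at 1 depth, cells were thinned to 500 UMIs, which left 209 day 0 cells, 251 day 7 cells and 151 day 20 cells, with 45, 32 and 48 too shallow. A UMI of any of the 9 enzymes was then found in 77.7% ± 15.6 (SD, n = 3) of day 0 cells, 69.0% ± 6.67 of day 7 cells and 73.3% ± 13.5 of day 20 cells. Unthinned, all retained cells, the shallow ones included, gave 90.6%, 84.8% and 85.9%. Gapdh alone was found in 33.4% ± 6.33, 25.1% ± 7.91 and 26.5% ± 2.67 of thinned cells. Since every cell type uses these genes, no cell type that lacks them could give the background from free RNA.

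MHC class II genes mark antigen-presenting cells. Cells with at least 3 of their UMIs, making up at least 0.5% of the cell, were compared with cells with 0 or 1 within replicates 1 and 2 of day 7 and day 20, the 4 libraries that held 10 or more cells of both kinds. Of the 4 enzymes tested (Gapdh, Pkm, Aldoa and Eno1), 0 passed, where 7.60% of the 329 genes tested did (21 higher and 4 lower, or 5 and 0 with DESeq2), and 0 had an unadjusted p under 0.05. Their log2 fold changes were -0.24, 0.33, -0.82 and 0.08, respectively. The genes that passed include Cd74, H2-Aa, H2-Ab1 and H2-Eb1, by which the cells were classed. Aldoa was lower in the class II-positive cells of all 4 libraries (294 ± 183 against 643 ± 266 CPM, SD), with an edgeR adjusted p of 0.36. The 9 enzymes summed to less in the positive cells of all 4 libraries, 2608 ± 419 against 3371 ± 557 CPM, a difference that was not tested. The class II UMIs of the positive cells are part of the CPM total, which lowers the CPM of other genes. How many of all genes were lower in all 4 libraries was not counted. Aldoa passed the filter on low counts mainly through the negative cells, so its direction was partly fixed in advance. Ldhb passed only through the negative cells, so its direction was close to fixed. Ldhb had a log2 fold change of -1.99 ± 0.56, which missed the threshold (edgeR adjusted p = 0.0506), with 187, 158, 65.1 and 213 CPM in the positive and 829, 708, 675 and 223 CPM in the negative cells of day 20 replicates 1 and 2 and day 7 replicates 1 and 2.

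Immediate-early genes are switched on within minutes of a stimulus, tissue dissociation included. Cells were split at their library's median share of immediate-early UMIs in 8 libraries, and day 7 replicate 3, with under 10 cells on either side, was left out. Of 8 enzymes tested, 0 passed, where 29.9% of the 1132 genes tested did, and 0 had an unadjusted p under 0.05. The immediate-early genes by which the cells were split were not taken out before this test. The log2 fold changes of high against low cells ran from -0.31 (Gapdh) to 0.21 (Eno1), with a median of 0.10, against 0.11 over all genes. Immediate-early UMIs are part of the CPM total and lower the CPM of other genes in the high cells, to an extent that was not tested. Gapdh was lower in the high cells of 8 of 8 libraries, 828 ± 174 against 1171 ± 279 CPM (SD), and its edgeR adjusted p was 0.14. How many of all genes were lower, or higher, in all 8 libraries was not counted. In day 7 replicates 1 and 2 Gapdh had 782 and 691 CPM in high and 1133 and 1217 CPM in low cells. The immediate-early genes summed to 5400 and 3081 CPM over all retained cells of these 2 libraries. On the deposited counts Gapdh and Pkm passed, with -0.48 and -0.51, where 1090 of the 1810 genes tested did.

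Hk2 differed from the 9 enzymes in this split. It was higher in the high cells, by 2.00 ± 0.40 on the log2 scale (edgeR adjusted p = 0.000282), in 8 of 8 libraries. Hk2 passed the filter on low counts only through the high cells of day 0, so its direction was close to fixed in advance. In the day 0 libraries it had 249, 394 and 386 CPM in high and 54.7, 42.2 and 102 CPM in low cells. At day 7 the values were 97.8 and 86.4 CPM in high and 39.4 and 23.4 in low cells. At day 20 they were 36.0, 122 and 98.8 CPM in high and 0, 114 and 0 in low cells. These day 20 values rest on 2, 13 and 2 UMIs in high and 0, 6 and 0 in low cells. Among high cells the day 0 libraries lay above all later ones, whereas among low cells, with 2 or 3 Hk2 UMIs in each day 0 library, the day 0 values lay within the range of day 20 and just above those of day 7. The call held under all 15 alternatives that tested it, with log2 fold changes of 0.99 to 2.48. The share of immediate-early UMIs also fell from day 0 to the later days, and its part in the day difference of Hk2 was not tested.

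**Figure D4:**
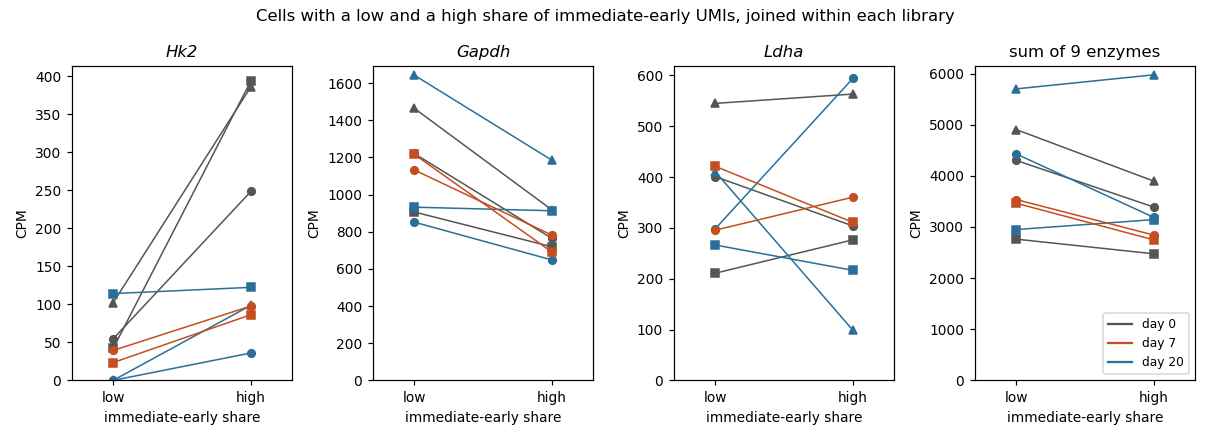
CPM (y axis) of Hk2, Gapdh, Ldha and the sum of the 9 enzymes in cells with a low and a high share of immediate-early UMIs (x axis), with lines joining both values of a library, colours for days and symbols for replicates. Hk2 is higher in the high cells of 8 of 8 libraries and Gapdh lower in 8 of 8, while Ldha goes both ways. How many of all genes went the same way in all 8 was not counted.

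Of the comparisons made, that with cells led by rod genes, which the CD45 and CD11b gate should not hold, gave the largest differences of the 9 enzymes. After quality control, 75 barcodes not retained as myeloid had rod as the leading of the other cell type lists, with ties given to rod. Of these, 65 lay in the day 0 libraries (26, 10 and 29). This comparison was added after the data were seen. It set their summed counts against those of the retained cells of the same 3 libraries, with library as a block. All 9 enzymes were higher in the rod-led cells, where 67.4% of the 1306 genes tested differed (410 higher and 470 lower, or 190 and 516 with DESeq2) and 31.4% were higher. Pgk1, too low to test between days, had at most 98.4 CPM in the retained cells of these libraries. It passed the filter on low counts through the rod-led cells, so its direction was close to fixed in advance. The marker genes that define both kinds of cells were not taken out before this test. The median log2 fold change of the 9, which is the value of Pgk1 itself, was 2.40, against 0.03 over all genes. The other enzymes ran from 1.04 (Gpi1) to 3.37 (Pkm). With DESeq2's size factors the median over all genes moved to -0.39 and that of the 9 to 1.97. Size factors shift all genes nearly alike, so this alternative could not change the 9 relative to all genes.

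Pkm and Pgam1 had the highest log2 fold changes, which differed by less than their errors. Pkm had 5519, 5686 and 4548 CPM in the rod-led cells of day 0 replicates 1, 2 and 3 and 477, 364 and 514 CPM in the retained cells, a log2 fold change of 3.37 ± 0.24 (edgeR adjusted p = 7.5e-40). Pgam1 had 2487, 3159 and 2160 CPM against 263, 98.9 and 317, and Aldoa 4700, 4802 and 4230 against 630, 375 and 590, with 3.35 and 2.94 on the log2 scale. Of the 9 enzymes, 8 did not overlap between the kinds of cells and Gpi1 did, where 66.8% of the genes tested did not overlap. The others were higher by 2.49 (Eno1), 2.40 (Pgk1), 2.17 (Ldha), 1.98 (Tpi1), 1.87 (Gapdh) and 1.04 (Gpi1) on the log2 scale. Gpi1 was called by the main fit (edgeR adjusted p = 0.00778) but not with DESeq2's size factors (0.139), with DESeq2 (0.727) or without day 0 replicate 1 or 3 (0.187 and 0.466), and Tpi1 was not called by DESeq2 (0.0632).

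Over all 75 rod-led cells the 9 enzymes held 20663 CPM, against 3319 in the retained cells, a ratio of 6.23 (5.89 to 6.58, counting error only). Of the other glycolysis enzymes tested, 5 of 6 were higher, among them Hk1 (3.81 on the log2 scale), the hexokinase of neurons, Aldoc (4.23) and Hk2 (1.44). Hk1 and Aldoc had at most 42.8 and 32.8 CPM in the retained cells of day 0. They passed the filter on low counts through the rod-led cells, as did Eno1b and Pfkl, so their direction was close to fixed in advance. The Hk2 call held in 3 of 5 alternatives. Ldhb was lower, with a log2 fold change of -1.90 ± 0.45 (edgeR adjusted p = 8.23e-05), with 182, 0 and 182 CPM in rod-led and 447, 443 and 678 CPM in retained cells. Ldha was thus higher and Ldhb lower in the rod-led cells. Mpc1, a subunit of the mitochondrial pyruvate carrier, was lower (log2 fold change -2.23, edgeR adjusted p = 0.00253), and the hypoxia response genes Hif1a, Ddit4 and Mif were higher. The Mif call held in 5 of 5 alternatives, Mpc1 in 4 of 5, Hif1a in only 2 of 5 and Ddit4 in 1 of the 3 that tested it. Hif1a and Ddit4 also passed the filter through the rod-led cells, with at most 76.5 and 109 CPM in the retained cells of day 0. Mif had 98.9 to 177 CPM there and would not have passed on those libraries alone. The direction of these hypoxia response genes was thus close to fixed in advance.

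**Figure D5:**
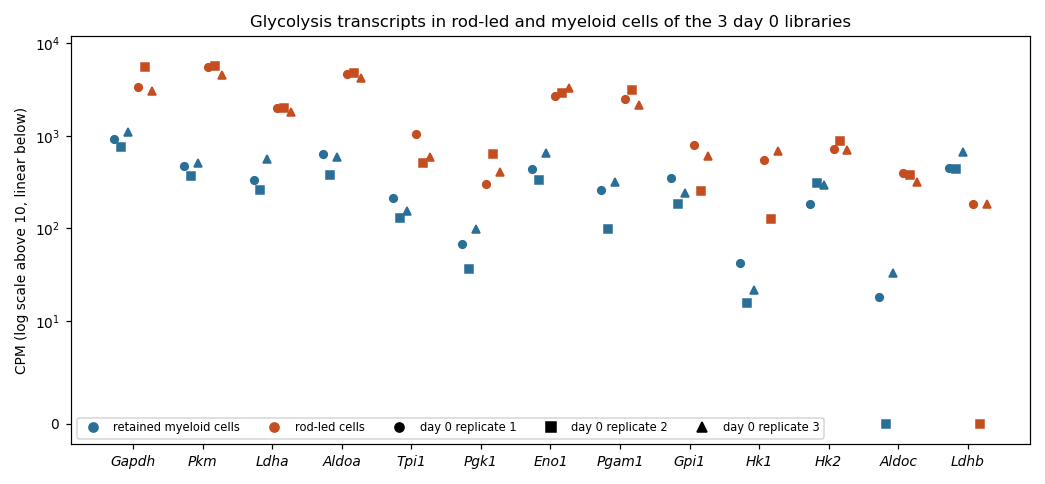
CPM (y axis, log scale above 10 and linear below) of the 9 enzymes and of Hk1, Hk2, Aldoc and Ldhb in retained and rod-led cells of the 3 day 0 libraries, with symbols for replicates. The rod-led cells lie above the retained cells of the same library for each of the 9 enzymes and below them for Ldhb.

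Rod-led cells were left out of the day comparisons. Had no cell type been left out, the median log2 fold change of the 9 enzymes would have been -0.25 at day 7 and -0.26 at day 20 against day 0, with a lowest edgeR adjusted p of 0.0614, as against -0.02 and 0.26 for the 8 tested in retained cells. In retained cells with at most 1 rod UMI the 9 enzymes summed to 3958 ± 2026 CPM at day 0 (SD, n = 3, 80 cells), 3652 ± 1052 at day 7 (251 cells) and 4144 ± 1380 at day 20 (175 cells), which overlapped. Of 6 enzymes tested in such cells, 0 passed in each day comparison, where 6.07% of the 593 genes tested passed at day 7 and 1.85% at day 20 against day 0, and 0.843% at day 20 against day 7. The median log2 fold change of the 6 was 0.52 at day 7 and 0.52 at day 20 against day 0, where all genes had 0.08 at both. Pkm had 0.73 at day 7 in these cells, against -0.29 in all retained cells, and passed in neither. Its day 0 UMIs in these cells were 0, 17 and 0 in replicates 1, 2 and 3. Those libraries held 13, 62 and 5 such cells, with 19, 163 and 12 UMIs of the 9 enzymes. The day 0 values of replicates 1 and 3 in these cells thus rest on few counts.

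Of the 36 pairs of enzymes, 31 (86.1%) had a positive Pearson correlation of log2(CPM + 1) over the 9 libraries, with a median of 0.33, where 51.5% of all pairs of the genes tested were positive. Without day 20 replicate 3, 29 pairs were positive and the median was 0.25. The highest was that of Tpi1 and Gpi1 (0.96, and 0.95 without that library), while Gapdh and Tpi1 fell from 0.73 to 0.15 and Gapdh and Eno1 went from 0.36 to -0.28. Of the other genes tested, those whose levels followed the sum of the 9 most closely over the 9 libraries were Taldo1 (r = 0.90), Sepp1 (0.88), Aplp2 (0.87), Mpc1 (0.86) and Ctsa (0.84). The libraries share barcodes and differ in depth, so these correlations are descriptions.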

How the data were processed

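The submitters' processing notes name Cell Ranger (version not given in the sources used here) and mm10, and the authors deposited, per library, UMI counts of each gene in each cell barcode, without normalization. The libraries held 247290 to 441678 UMIs. Time is given in days, as in the treatment labels and the study's methods, whereas the sample titles give the same numbers in hours. The members and lists were chosen with earlier results of these data known. Retained cells had at least 200 detected genes, under 10% mitochondrial UMIs, at least 2 myeloid UMIs and more of these than of any other marker list. No doublet caller was run. Counts were summed per library (or per library and cell class) and tested with edgeR 4.0.16 (quasi-likelihood test, TMM, filterByExpr, Benjamini-Hochberg adjustment over all genes tested, threshold 0.05), with all 9 libraries in 1 fit for the days and library as a block for cell classes. Class II-positive cells had at least 3 class II UMIs and at least 0.5% of their UMIs from that list, and negative cells 0 or 1. The fit across days was tested on simulated data for day 7 against day 0. Alternatives covered shared barcodes, cell and gene filters, DESeq2 1.42.0 and its size factors, the replicate block, class rules and left-out libraries. Cells with at most 1 rod UMI and rod-led cells were added after the data were seen. The text names all 9 members, the genes of the other lists that were called or had at least 30 UMIs, and the 5 genes most correlated with the members. Intervals of UMI ratios are exact binomial at 95%. Promoters are from RefSeq, and 98.7% of the gene identifiers were found in GENCODE M21.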

Additional observations from a re-analysis of the deposited data

How the results depend on the processing

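In each day comparison the number of enzymes called was 0 under all 19 alternatives, leaving out each library in turn included (0 to 0 of those tested). It was also 0 within the cell classes, except on the deposited counts, where 1 enzyme passed for MHC class II (Gapdh, -0.68, edgeR adjusted p = 0.00271) and 2 for immediate-early cells. On those counts 530 of the 1336 genes tested passed for class II and 1090 of 1810 for immediate-early cells. Of the rod-led cells' 9, 8 passed with DESeq2's size factors, 7 with DESeq2 and 8 to 9 with a library left out. Uncalled enzymes and genes changed sign in 20, 13 and 20 of their values under alternatives of day 7 and day 20 against day 0 and day 20 against day 7, in 5 for class II and in 31 for immediate-early cells. Only barcodes listed in 1 library left 174 genes and 1 enzyme to test. The replicate numbers were not shown to pair libraries: same-numbered libraries had correlations of -0.03 to 0.15, and 3 of 9 libraries correlated best with their own number. With the replicate block, 0 enzymes were called in each day comparison, and Slc2a5 at day 20 lost its call (-2.78, edgeR adjusted p = 0.0501).

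Counts over all genes moved more, and the causes were not tested. For day 7, 367 calls became 72 on deposited counts, 8 with barcodes of 1 library, 183 without removal of other cells, 227 with removal by cluster, 36 in cells with at most 1 rod UMI and 189 to 539 with a library left out (233 and 217 without day 0 replicates 1 and 2, 189 and 192 without day 7 replicates 1 and 2). For day 20 against day 0, 45 became 1, 0, 37, 17, 11 and 25 to 50 (26 without day 0 replicate 3, 25 without day 20 replicate 2 and 25 without day 7 replicate 1), and for day 20 against day 7, 62 became 0, 2, 12, 21, 5 and 14 to 94. For class II, 25 became 530 on deposited counts, 9 without removal, 132 with positive cells at 1 UMI, 5 with DESeq2, 10 without the gene filter and 16 to 40 with a library left out. For immediate-early cells, 339 became 1090 on deposited counts and 36 in cells with at most 1 rod UMI, and for rod-led cells 880 became 524 without day 0 replicate 1.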
